A study of Mus musculus with 9 samples.

Results

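The 10 mRNAs described here, Atf4, Atf5, Atf3, Ddit3, Ddit4, Ppp1r15a, Trib3, Chac1, Sesn2 and Cebpb, belong to the integrated stress response that centres on the transcription factor ATF4, and several of them carry upstream open reading frames (uORFs). They were chosen by gene symbol. All 10 symbols were found among the 54325 in the deposited table, in 23 of its 140658 transcript rows, and the rows of each symbol were summed. In the integrated stress response, kinases that sense amino acid shortage, unfolded protein, double-stranded RNA or heme deficiency phosphorylate the translation factor eIF2α. General initiation then falls, while ribosomes that pass short ORFs in the leaders of certain mRNAs reach the main ORF more often, and ATF4 made in this way switches on genes for amino acid supply, further transcription factors and feedback regulators. A uORF also places a stop codon far upstream of the mRNA's end, which is a recognised feature of mRNAs degraded by nonsense-mediated mRNA decay (NMD), the pathway in which the helicase UPF1 is phosphorylated on its target mRNAs.

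The study sought the mRNAs that phosphorylated UPF1 (p-UPF1) occupies in N2A cells, a mouse neuroblastoma line. All libraries came from cells kept for 2 h in 200 nM okadaic acid, which blocks protein phosphatases. The 3 groups were RNA that came down with antibody to p-UPF1 (p-UPF1 IP), RNA recovered with control rabbit IgG (rIgG IP) and RNA that was not immunoprecipitated (input), with 3 libraries each, all made from RNase I fragments of 25 to 50 nt. No library came from cells without okadaic acid and 1 line was used, so the stress state of the cells was not compared with anything. The labels and methods do not say whether replicates were separate cultures, so the p-values measure the spread between these libraries, which may be technical.

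The 10 mRNAs together received 6849, 6686 and 7921 estimated counts in input, 5697, 6903 and 6676 after p-UPF1 IP, and 120, 40 and 20 after rIgG IP. As shares of the library totals these were 263, 266 and 265 CPM (counts-per-million, the count over the library total) in input, 1072, 1144 and 1069 CPM in the p-UPF1 IP, and 253, 195 and 253 CPM in the rIgG IP. Every p-UPF1 IP library thus lay above every input and rIgG IP library, and the last 2 groups lay close together. The totals behind these shares were 25184464 to 29857955 counts in input, 5312526 to 6246110 in the p-UPF1 IP and 79010 to 474491 in the rIgG IP. The 10 most-counted transcripts took 76.8% to 82.3% of the counts of every library. A share of 3 counts, taken as the floor, corresponded to at most 0.119 CPM in input, at most 0.565 CPM in the p-UPF1 IP, and 6.32, 14.6 and 38 CPM in the 3 rIgG IP libraries, and these floors cover counting error only. Of 16 neuronal and sympathetic neuroblastoma markers, 12 had at least 10 counts in every input library. The most counted were Stmn2 with 1313, 1214 and 1413 counts and Tubb3 with 1363, 1254 and 1318. Nefl was at 0 there, and the 16 summed to 198, 191 and 174 CPM. The 4 immune and the 4 epithelial markers summed to at most 0.199 CPM in every input library, their top genes being Cd3e (3, 1 and 0 counts) and Cdh1 (3, 1 and 2 counts).

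Set against size-matched input, 8 of the 10 mRNAs were called higher in the p-UPF1 IP (adjusted p under 0.05), where 26.3% of the 16919 genes tested were. Atf4 was called lower, as were 35.7% of all genes, and Atf5 was not called. Ddit3, Ppp1r15a, Sesn2, Ddit4, Atf3 and Trib3 also passed a log2 fold change of 1 and are called enriched, which makes 6 of 10 beside 17.3% of all genes. The median log2 fold change was 1.93 over the 10 mRNAs and -0.42 over all genes. In 9 of the 10 the 3 p-UPF1 IP libraries lay above all 3 input libraries, as for 28% of all genes, and in Atf4 they lay below them. The zero of these log2 fold changes is set by TMM scaling. Scaling by library totals alone moved the median of all genes to -0.01 and the share of higher calls among all calls from 42.4% to 56.7%. Of the 10 mRNAs 8 were then enriched, with Cebpb at 1.08 and Chac1 at 1.01, while the enriched number among all 16919 genes rose from 2919 to 4108.

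**Figure D1:**
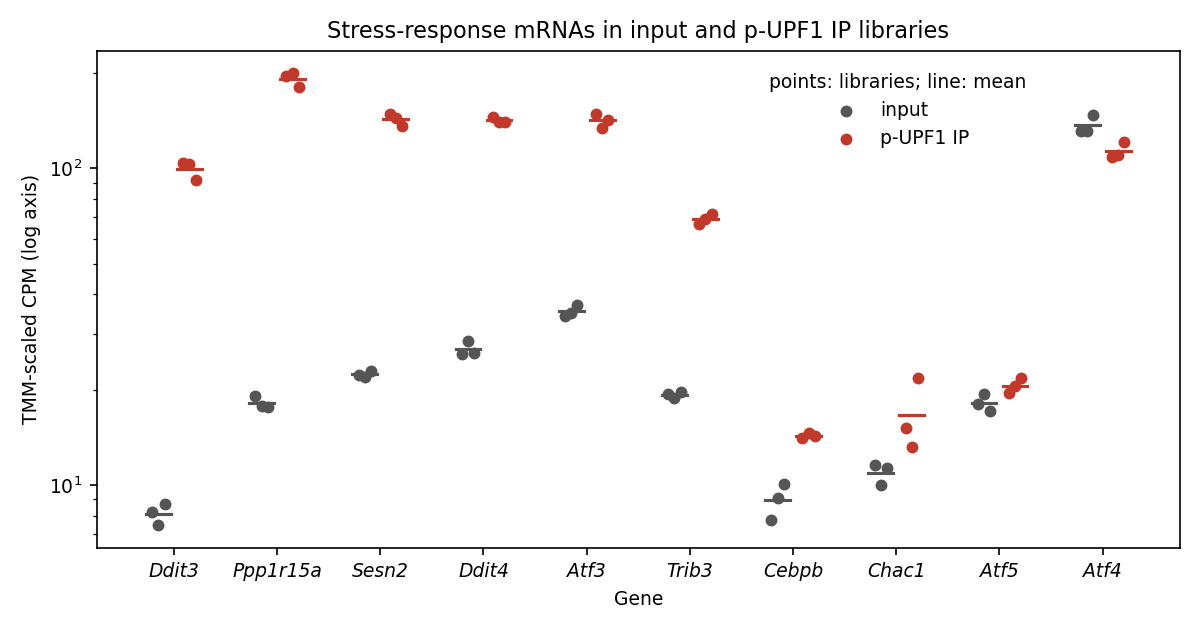
Level of each mRNA in the 3 input libraries (grey) and the 3 p-UPF1 IP libraries (red), as TMM-scaled CPM of summed counts on a log axis; points are libraries, short lines are means, and genes are ordered by log2 fold change. Ddit3 lay between 7.46 and 8.67 CPM in input and between 91.6 and 104 CPM in the p-UPF1 IP, whereas Atf4 lay between 131 and 148 CPM in input and between 109 and 121 CPM in the p-UPF1 IP.

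Among the transcription factors, Ddit3 (chr10:127290774-127296288), which encodes CHOP, a C/EBP-family factor that promotes cell death under lasting stress, had the largest log2 fold change of the 10. Its level, in TMM-scaled CPM, was 8.22, 7.46 and 8.67 in input and rose to 104, 103 and 91.6 after p-UPF1 IP. The lowest p-UPF1 IP library was far above the highest input library. The log2 fold change was 3.61 ± 0.09 (SE, n = 3 and 3), or 12.2-fold, with an edgeR adjusted p of 8.59e-10. By log2 fold change Ddit3 ranked 141 among the 10613 genes with a mean count of at least 20.

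Atf3 (chr1:191170296-191218039) encodes a stress-induced factor of the same bZIP superfamily that often acts as a repressor. It stood at 34, 34.9 and 37 CPM in input and at 148, 134 and 142 CPM in the p-UPF1 IP. The groups were widely separated, and the log2 fold change was 2.00 ± 0.07 (edgeR adjusted p = 6.48e-09). Cebpb (chr2:167688915-167690418), an intronless gene for a C/EBP factor that pairs with CHOP and ATF4, stood at 7.74, 9.07 and 10.1 CPM in input and at 14.1, 14.6 and 14.2 CPM in the p-UPF1 IP. Its groups did not overlap either, with less distance between them, and the log2 fold change of 0.67 ± 0.11 (edgeR adjusted p = 4.73e-04) was above 0 but below the threshold of 1. Of Cebpb's exonic bases, 20.7% overlap exons of Tmem189 on the opposite strand.

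Atf4 (chr15:80255184-80257541), the central factor of the response, and Atf5 (chr7:44812256-44816658), its close relative that drives a mitochondrial stress programme, stood apart from these. Atf4 had 132, 131 and 148 CPM in input and 109, 109.8 and 121 CPM in the p-UPF1 IP. All 3 p-UPF1 IP libraries were below all 3 input libraries by a small margin, and the log2 fold change was -0.27 ± 0.08, or 1.21-fold lower (edgeR adjusted p = 0.0109). That edgeR call was lost without p-UPF1 IP replicate 1 (-0.20, adjusted p = 0.068) and without p-UPF1 IP replicate 2 (-0.22, adjusted p = 0.0708). It was also lost with all 9 libraries in one fit (-0.245, adjusted p = 0.0973), and under library totals the value was 0.14 (adjusted p = 0.161). Over the 13 alternatives the adjusted p of Atf4 ranged from 3.66e-04 to 0.161. By log2 fold change Atf4 ranked 5603 among the 10613 genes with a mean count of at least 20, and the median of all 16919 genes was -0.42. Atf5 had 18.1, 19.4 and 17.1 CPM in input and 19.5, 20.5 and 21.7 CPM in the p-UPF1 IP. Its groups touched without overlapping. The log2 fold change of 0.18 ± 0.09 was not called (edgeR adjusted p = 0.0921), although edgeR called it higher without input replicate 2 (0.24, adjusted p = 0.0489), without p-UPF1 IP replicate 1 (0.26, adjusted p = 0.0482), with filterByExpr (0.21, adjusted p = 0.0458) and with library totals (0.585, adjusted p = 6.26e-04).

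Ppp1r15a (chr7:45522916-45526268) encodes GADD34, the stress-induced subunit that directs protein phosphatase 1 to eIF2α and so ends the response. It had 19.1, 17.7 and 17.7 CPM in input and 196, 199 and 181 CPM in the p-UPF1 IP. No library of one group came near the other. The log2 fold change was 3.40 ± 0.08, or 10.6-fold (edgeR adjusted p = 5.7e-10), which ranked 162 among the 10613 genes with a mean count of at least 20. Trib3 (chr2:152337422-152344032) encodes a pseudokinase that binds ATF4 and AKT and restrains both. It had 19.4, 18.8 and 19.6 CPM in input and 66.8, 69.2 and 71.8 CPM in the p-UPF1 IP, the smallest rise among the 6 enriched mRNAs, with a log2 fold change of 1.85 ± 0.07 (edgeR adjusted p = 8.48e-09).

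Sesn2 and Ddit4 both encode proteins that hold back the growth kinase mTORC1, Sesn2 as a leucine-sensing sestrin and Ddit4 as REDD1, which acts through the TSC complex. Sesn2 (chr4:132492032-132510501) had 22.3, 21.9 and 22.9 CPM in input and 148, 144 and 136 CPM in the p-UPF1 IP, a log2 fold change of 2.67 ± 0.07 (edgeR adjusted p = 1.07e-09). Ddit4 (chr10:59949669-59951834) had 25.9, 28.4 and 26 CPM in input and 146, 139.9 and 139.7 CPM in the p-UPF1 IP, a log2 fold change of 2.40 ± 0.07 (edgeR adjusted p = 2.02e-09). In both, the replicates of a group lay within a narrow band and the groups were far apart. Chac1 (chr2:119351229-119354381), whose product breaks down glutathione, had 11.5, 9.96 and 11.3 CPM in input and 15.1, 13.2 and 21.7 CPM in the p-UPF1 IP. Replicate 3 of the p-UPF1 IP was its highest library, above the other 2 by more than these stood above input. The log2 fold change was 0.61 ± 0.16 (edgeR adjusted p = 0.00717), and without that library it was 0.39 (adjusted p = 0.0158).

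Counts of different mRNAs can be compared only per length, here per kb of the most-counted transcript with a complete annotated coding sequence. For Ddit3 this is Ddit3-201 (890 nt) in both groups, although most of its p-UPF1 IP counts lay on Ddit3-203, whose annotated 600 nt end within the coding sequence. For Atf4 it is Atf4-201 (1725 nt), although 87.3% of its input counts and 61.1% of its p-UPF1 IP counts lay on the longer Atf4-203 (2019 nt). In input, Atf4 was the most abundant at 79.3 ± 5.48 CPM per kb (mean ± SD, n = 3), followed by Atf3 at 17.8 ± 0.758 and Ddit4 at 15.3 ± 0.803 CPM per kb. Atf5 (10.01 ± 0.631), Trib3 (9.51 ± 0.223) and Ddit3 (9.12 ± 0.689 CPM per kb) came next and lay within 1 SD of a neighbour. Ppp1r15a had 7.78 ± 0.35 CPM per kb, and Chac1 (6.68 ± 0.52), Sesn2 (6.43 ± 0.145) and Cebpb (5.96 ± 0.78) were not separated beyond their spread. In the p-UPF1 IP the order was another. Ddit3 stood first at 112 ± 7.77 CPM per kb, then Ppp1r15a (82.3 ± 4.15) and Ddit4 (80.8 ± 1.92), which did not differ beyond their spread, then Atf3 (71.4 ± 3.57) and Atf4 (65.6 ± 3.9 CPM per kb). Sesn2 (41 ± 1.79) and Trib3 (34.2 ± 1.22 CPM per kb) followed. Atf5 (11.3 ± 0.611), Chac1 (10.2 ± 2.73) and Cebpb (9.5 ± 0.162 CPM per kb) stood lowest, with Chac1's spread covering both of its neighbours.

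Against the rIgG IP, the control for RNA that sticks to beads and antibody, 7 of the 10 mRNAs were called higher in the p-UPF1 IP, beside 17.9% of the 12033 genes tested. All 7 were also enriched, beside 17.5% of all genes, and none of the 10 was called lower, beside 5.59%. At an unadjusted p under 0.05 edgeR also had 0 lower, and DESeq2 had 0 lower at an adjusted p under 0.05. The median log2 fold change was 2.54 over the 10 mRNAs and 0.89 over all genes, against 2.87 and 1.60 without rIgG IP replicate 1 and 2.26 and 0.25 by DESeq2. In 8 of the 10, all p-UPF1 IP libraries lay above all rIgG IP libraries, as for 46.2% of all genes. This comparison uses the same p-UPF1 IP libraries as the one with input, so the 2 are not independent. Over all genes, the higher calls fell from 2158 to 1309 without rIgG IP replicate 1 and to 1413 without rIgG IP replicate 2, and the lower calls from 673 to 311 without rIgG IP replicate 1. The 7 calls among the 10 mRNAs were made in every one of the 13 alternatives.

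The rIgG IP libraries gave few counts for each mRNA. Ppp1r15a had 6, 3 and 2 counts in the rIgG IP and 1153, 1452 and 1284 in the p-UPF1 IP, and its log2 fold change was 3.99 ± 0.32 (edgeR adjusted p = 6.47e-10). Ddit3 had 7, 1 and 1 counts against 613, 752 and 650, with a log2 fold change of 3.34 ± 0.36 (edgeR adjusted p = 1.55e-07) that rose to 4.37 without rIgG IP replicate 1. Trib3 had 6, 4 and 0 counts against 394, 504 and 509, and a log2 fold change of 2.66 ± 0.37 (edgeR adjusted p = 6.63e-06). These 3 had the fewest control counts among the enriched mRNAs, so their standard errors were the widest there. Atf3 (2.63 ± 0.28), Ddit4 (2.57 ± 0.29) and Sesn2 (2.51 ± 0.29) followed, from 21 to 23 summed rIgG IP counts, and without rIgG IP replicate 1 they stood at 2.88, 3.56 and 2.88.

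Atf4 was enriched over the rIgG IP, with 27, 11 and 2 counts there against 642, 800 and 858 in the p-UPF1 IP and a log2 fold change of 1.39 ± 0.26 (edgeR adjusted p = 2.67e-04). With TMM scaling its position was thus above rIgG IP and below input, the latter only by the margin and in the settings given above. Among the 12033 genes tested against the rIgG IP, whose median log2 fold change was 0.89, Atf4 ranked 4807. Cebpb (0.54 ± 0.45, edgeR adjusted p = 0.408), Chac1 (0.03 ± 0.45, adjusted p = 0.972) and Atf5 (-0.08 ± 0.34, adjusted p = 0.88) were not called. Chac1 had 10, 2 and 3 rIgG IP counts against 89, 96 and 154, and Atf5 had 13, 5 and 2 against 115, 149 and 154. For both, TMM-scaled CPM overlapped between the groups, at 20.1 ± 9.31 against 21 ± 5.55 (mean ± SD, n = 3) for Chac1 and 24.4 ± 8.15 against 25.9 ± 1.24 for Atf5, whose mean was higher in the p-UPF1 IP although its log2 fold change was below 0, so it has no clear direction. Their SEs of 0.34 to 0.45 were large beside the log2 fold changes of 0.18 to 0.67 that these 3 mRNAs had over input.

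**Figure D2:**
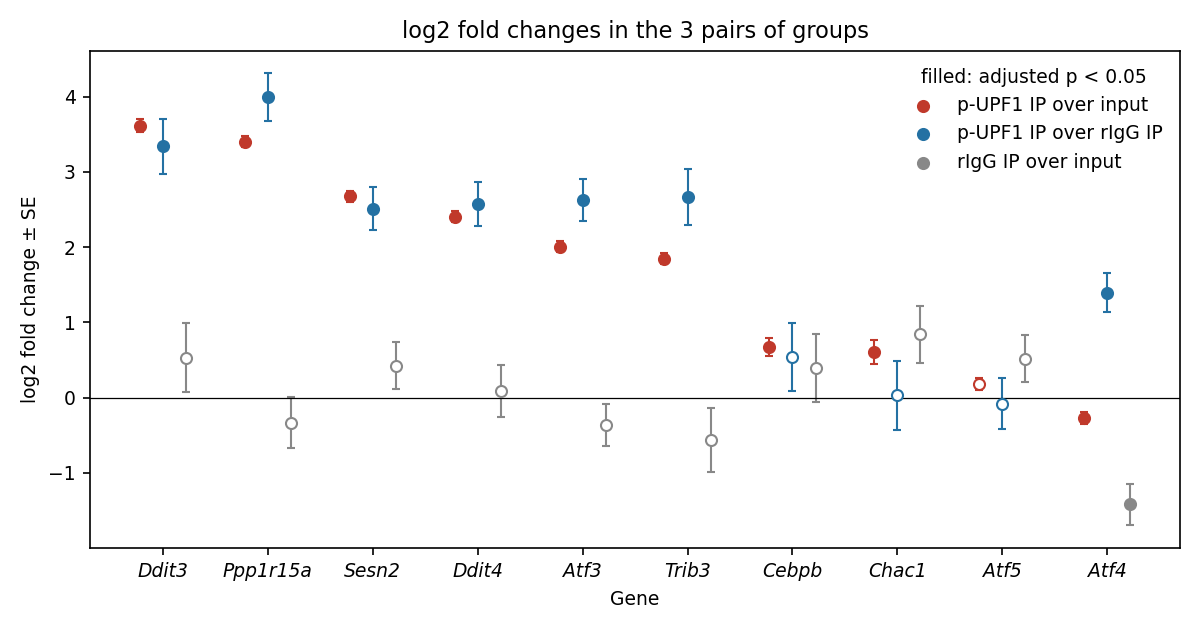
Log2 fold change with its SE for each mRNA in p-UPF1 IP over input (red), p-UPF1 IP over rIgG IP (blue) and rIgG IP over input (grey), 3 libraries per group; filled points had an adjusted p under 0.05. Ddit3, Ppp1r15a, Sesn2, Ddit4, Atf3 and Trib3 lay above 1.8 in both p-UPF1 IP comparisons, which share the p-UPF1 IP libraries, and Atf4 lay at 1.39 over the rIgG IP and at -0.27 over input.

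The rIgG IP itself was set against input to see which mRNAs the control recovered. By edgeR 0 of the 10 mRNAs were called higher, where 0.584% of 16280 genes were, and DESeq2 also called 0; at an unadjusted p under 0.05 there was 1, Chac1, with a log2 fold change of 0.84 ± 0.37 (adjusted p = 0.39). Atf4 was called lower, as were 0.313% of all genes, with a log2 fold change of -1.42 ± 0.28 (edgeR adjusted p = 0.0356). That edgeR call was lost without input replicate 1 (-1.39, adjusted p = 0.0978), without rIgG IP replicate 2 (-1.40, adjusted p = 0.147) and with RLE factors (-1.13, adjusted p = 0.0885). The median log2 fold change was 0.24 over the 10 mRNAs and -0.84 over all genes, but without rIgG IP replicate 1 these were -0.42 and -4.09, and by DESeq2 0.53 and 0.25. Calls over all genes were few and moved with single libraries, from 95 higher and 51 lower to 182 and 134 without input replicate 2, and to 65 and 25 without rIgG IP replicate 2. On simulated data this comparison recovered 6% of changes of 1 in log2 size, so a missing call does not exclude a change of that size.

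The deposited rows are single transcripts, and the study tested those. In the p-UPF1 IP over input, 20 of the 23 rows of these genes had at least 10 summed counts. Of them 8, from 7 genes, were enriched, beside 8.55% of the 42616 transcripts tested, and 1 was depleted, beside 16.2%. With a replicate block 6 of these rows were enriched, and 1075 of all transcripts against 3644. Over all transcripts the depleted number fell from 6908 to 3682, 4434 and 3936 without input replicates 1, 2 and 3. In 6 genes the enriched row was the one with most input counts. These were Ppp1r15a-201 (3.16 ± 0.09), Ddit3-201 (2.47 ± 0.10), Sesn2-201 (2.37 ± 0.07), Ddit4-201 (2.10 ± 0.07), Atf3-201 (1.73 ± 0.08) and Trib3-201 (1.58 ± 0.08), with edgeR adjusted p from 6.35e-05 to 2.13e-04. Chac1-201 (0.30 ± 0.21), Cebpb-201 (0.37 ± 0.14) and Atf5-201 (-0.24 ± 0.11), the most-counted rows of their genes, were not called. Row values and summed values have different zeros, since each fit has its own TMM scaling. The median log2 fold change was -0.945 over all transcripts and -0.42 over all genes. Chac1-201, Cebpb-201, Sesn2-201 and Ddit4-201 hold all counts of their genes, whose summed values were 0.61, 0.67, 2.67 and 2.40. Their lower row values thus come from the fit and are not a difference between isoforms.

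The estimated counts of Ddit3 were divided differently among its transcripts in input and in the p-UPF1 IP. The row of Ddit3-203, in which exon 1 is joined directly to the exon holding the CHOP start codon, had 17, 0 and 25 input counts but 389, 474 and 384 after p-UPF1 IP. Its share of the gene's counts was 8.99%, 0% and 11.6% in input but 63.5%, 63% and 59.1% after p-UPF1 IP. The full-length row, Ddit3-201, had 127, 116 and 123 input counts (67.2%, 69.5% and 56.9% of the gene) and 213, 262 and 247 p-UPF1 IP counts (34.8%, 34.8% and 38%). Every p-UPF1 IP library thus had most of its Ddit3 counts on the shorter row and every input library on the longer. Ddit3-203 had a log2 fold change of 6.40 ± 1.14 (edgeR adjusted p = 0.0118), which was not called without input replicate 1 (6.60, adjusted p = 0.0512) or with a replicate block (6.83, adjusted p = 0.0817). Over its 10 alternatives the adjusted p ranged from 8.62e-07 to 0.0817. The retained-intron row Ddit3-202 went the other way, with 32, 38 and 47 input counts and 1, 1 and 6 p-UPF1 IP counts, and was not called (-2.38 ± 0.81, edgeR adjusted p = 0.0831). The remaining row, Ddit3-204, is 105 nt long and has the genomic span of the 34-codon uORF described below. It had 13, 13 and 21 input counts and 10, 15 and 13 p-UPF1 IP counts and was not called (1.18 ± 0.43, edgeR adjusted p = 0.0967). In the annotation the symbol Ddit3 joins 2 gene identifiers. Ddit3-203 differs from the gene's other transcripts in 32 of its 566 windows of 35 nt, those over its own exon junction, so its counts rest on few distinguishing fragments. The part that the assignment of fragments to rows had in this split was not tested.

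The junctions that set Ddit3-201 and Ddit3-203 apart are given from GENCODE M21 on GRCm38 (plus strand of chromosome 10), 15 bases on each side, with the exon after the junction in capitals. Exon 1 ends at 127290891, and the next exon starts at 127293712 in Ddit3-201 and at 127295321 in Ddit3-203.
Ddit3-201: aacctgaggagagagTGTTCCAGAAGGAAG
Ddit3-203: aacctgaggagagagAACCTGGTCCACGTG
The annotated leader is 186 nt in Ddit3-201 and 119 nt in Ddit3-203, which lacks the middle exon and also starts further downstream, at 127290793 against 127290774. Read from the first upstream AUG, the uORF in Ddit3-201 has 34 codons and ends before the CHOP start codon, whereas in Ddit3-203 the same AUG opens an ORF of 87 codons that runs out of frame into the CHOP coding sequence.

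Atf4 also divided between rows. The unspliced row Atf4-203, annotated as a retained intron, had 2640, 2567 and 3204 counts in input, which was 87.3%, 87.5% and 87.1% of the gene, 262, 496 and 647 counts in the p-UPF1 IP, which was 40.8%, 62% and 75.4%, and 0 counts in every rIgG IP library. The spliced row Atf4-201 had 385, 368 and 474 input counts, 380, 304 and 158 p-UPF1 IP counts, and all 40 rIgG IP counts of the gene. The split was the same in all input libraries and differed between p-UPF1 IP libraries. Atf4-203 was depleted at a log2 fold change of -1.11 ± 0.26 (edgeR adjusted p = 0.0289), a call lost in 8 of 10 alternatives, over which the value ranged from -1.34 to -0.40. Without p-UPF1 IP replicate 1 it fell short of the threshold of 1 in size (-0.81, edgeR adjusted p = 0.0244), and without p-UPF1 IP replicate 2 or any 1 input library the adjusted p was 0.0692 to 0.0981. Atf4-201 lay at 1.00 ± 0.38 and was not called (edgeR adjusted p = 0.106), although without p-UPF1 IP replicate 3 it was enriched (1.35, adjusted p = 0.0128), as it was with library totals (1.70, adjusted p = 0.0246). The summed value of Atf4 against input therefore joins rows with log2 fold changes of opposite sign, and the part that the assignment of fragments to rows had in it was not tested.

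**Figure D3:**
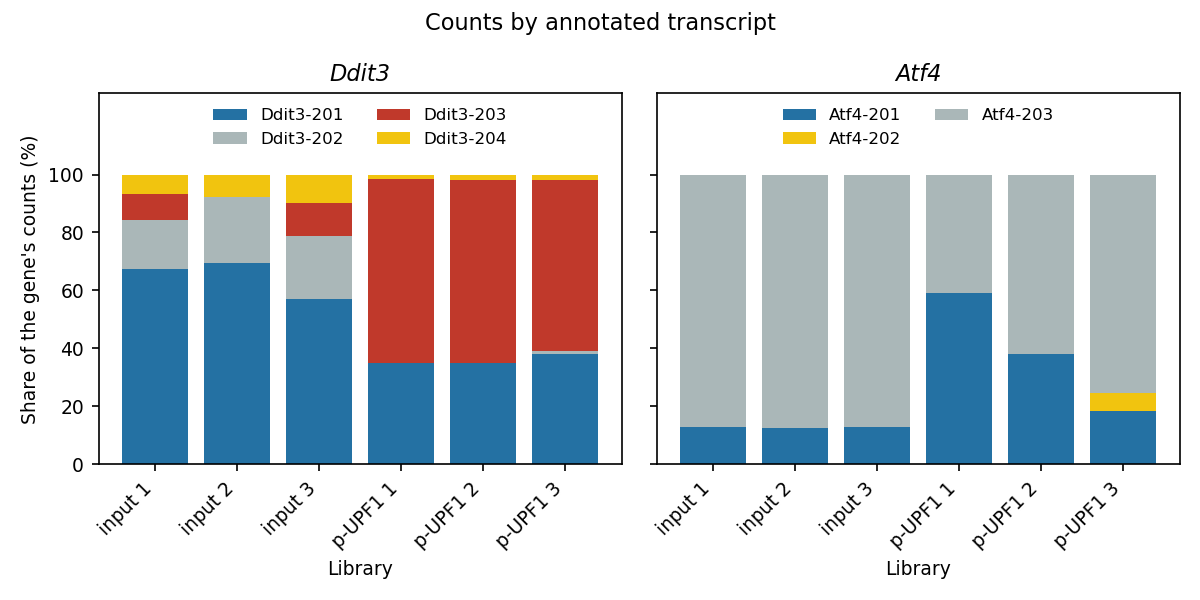
Share of the counts of Ddit3 (left) and Atf4 (right) on each annotated transcript, in percent, in the 3 input and the 3 p-UPF1 IP libraries. Ddit3-203 (red) held 0% to 11.6% of the input counts and 59.1% to 63.5% of the p-UPF1 IP counts, and Atf4-203 (grey) held 87.1% to 87.5% and 40.8% to 75.4% of them.

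A small row of Atf5, Atf5-203, had no count in any input library and 13, 12 and 24 after p-UPF1 IP, at least 15.2-fold higher when each input library is set at the floor of 3 counts (edgeR adjusted p = 0.00862, or 0.178 with a replicate block). It held 11.7% of the Atf5 counts of the p-UPF1 IP, and 31 of its 561 windows of 35 nt are its own. Minor rows of 2 other genes were not called. Ppp1r15a-202 had 14, 18 and 22 input counts and 4, 6 and 7 p-UPF1 IP counts, and Trib3-203, a retained intron, had 13, 12 and 19 against 2, 4 and 6.

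The leaders of these same most-counted complete transcripts were read for uORFs, defined as an AUG before the main start codon followed by a stop codon in its frame. Of the 10 mRNAs 6 had at least 1, beside 49.4% of the 12692 tested protein-coding genes. Atf4-201 had 3 uORFs in a leader of 594 nt and Atf5-201 had 2 in 373 nt, and in both the last one overlaps the main ORF. Ppp1r15a-201 had 3, of 45, 34 and 26 codons, in 283 nt, and Ddit3-201 had 2 that share a stop codon, of 34 and 31 codons, in 186 nt. Atf3-201 had 1 uORF of 25 codons and Sesn2-201 had 1 of 22 codons. No upstream AUG lies in the annotated leaders of Ddit4 (198 nt), Trib3 (176 nt), Chac1 (174 nt) and Cebpb (107 nt). Short ORFs that begin after the annotated main start were not looked for, so the classes depend on that start. No main transcript of the 10 has an exon junction more than 50 nt after the stop codon of its main ORF, an arrangement that marks an mRNA for the junction-dependent branch of NMD. Junctions after the stop codons of uORFs were not counted, so this does not say whether a uORF creates that arrangement. The share of all genes with it is not given.

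With the uORFs of these transcripts and the log2 fold changes of summed genes, Atf4 and Atf5, whose last uORF overlaps the main ORF, were not enriched over input, and Ppp1r15a, Atf3 and Sesn2, whose uORFs end before the main start, were. Atf4-201 itself, with 12.7% of the gene's input counts, lay at 1.00 and was enriched in 2 of 10 alternatives. That value is from the fit of transcripts, whose zero differs from that of the summed genes. Ddit3 was enriched and belongs to both classes, since the uORF ends before the main start in Ddit3-201 and overlaps the main ORF in Ddit3-203, which held 61.9% of its p-UPF1 IP counts. Of the 4 with no upstream AUG in the annotated leader, Ddit4 and Trib3 were enriched and Chac1 and Cebpb were not. With 10 genes this is a description. Over all tested protein-coding genes, the share enriched was 19.4% of 6422 with no uORF, 17.4% of 4134 with uORFs that end before the main start and 18.8% of 2136 with an overlapping uORF, so the 3 classes lay close together. The median log2 fold changes of these classes were -0.22, -0.16 and -0.17. The 10 mRNAs were shorter than the rest, with a median of 1786 nt against 2909 nt, had a higher GC content, 57.7% against 50.5% at the median, and had leaders of 225 nt against 159 nt.

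Start sites of these uORFs are shown because they set the arrangements apart, each as 30 bases of the GENCODE M21 transcript on GRCm38, from 9 bases before the upstream AUG. Capitals mark the ATG and, where it falls inside the window, the uORF's stop codon. Atf4 and Atf5 share the layout of a 3-codon uORF, here shown complete, followed by one that overlaps the main ORF. For Ddit3 and Ppp1r15a the first uORF is given. Genomic spans of the uORFs are chr15:80255582-80255593 and chr15:80255681-80256381 (plus strand) for Atf4, chr7:44816526-44816537 and chr7:44815111-44816406 (minus strand) for Atf5, chr10:127290829-127293753 (plus strand) for Ddit3 and chr7:45526097-45526234 (minus strand) for Ppp1r15a, introns included.
Atf4, 3 codons: gcggccaccATGgcgtatTAGaggcagcag
Atf4, 59 codons: gcctaagccATGgcgctcttcacgaaatcc
Atf5, 3 codons: gcccgcgcaATGgctctgTAGccgcgaccc
Atf5, 58 codons: ttcgccgccATGgagtcctccaccttcgcc
Ddit3, 34 codons: gattatatcATGttgaagatgagcgggtgg
Ppp1r15a, 45 codons: gcgtggacgATGttggcgcagattgagtca
The 3-codon uORF of Atf4 starts 196 nt and that of Atf5 252 nt before the main start codon, and the overlapping uORFs start 97 and 121 nt before it.

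**Figure D4:**
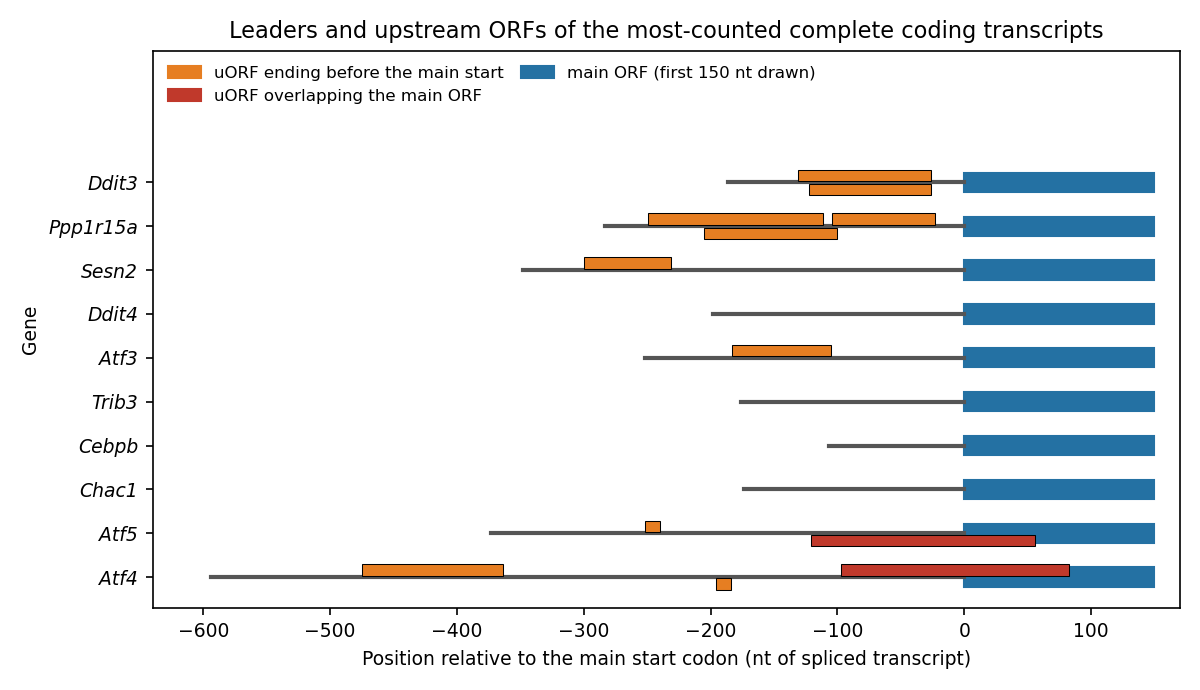
Leaders of the most-counted transcripts with a complete annotated coding sequence, drawn to scale in nt of spliced RNA, aligned at the main start codon, with genes in the order of log2 fold change in the p-UPF1 IP over input. Orange boxes are uORFs that end before the main start, red boxes uORFs that overlap the main ORF (blue); red boxes occur in Atf5 and Atf4, and Ddit3-203, whose uORF of 87 codons also overlaps the main ORF, is not drawn.

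Other genes of the pathway were read from 8 lists, whose 80 tested genes gave 22 higher, 41 lower and 9 enriched, with a median log2 fold change of -0.36. Over all genes 26.3% were higher, 35.7% lower and 17.3% enriched, with a median of -0.42, so the lists together lay near all genes in their higher calls and median. Their lower calls lay above the share of all genes and their enriched calls below it, and neither difference was tested. Single lists held 5 to 18 tested genes. Of the eIF2α kinases and phosphatase regulators, 3 of 11 were higher and 6 lower. Impact, which inhibits the kinase GCN2, rose from 33.8 ± 1.16 to 122 ± 4.16 CPM (log2 fold change 1.85 ± 0.07), and the catalytic subunit Ppp1ca, the partner of the Ppp1r15a product, fell (-2.33 ± 0.10), which set it opposite to Ppp1r15a. Its constitutive paralog Ppp1r15b, also in 2 other lists, had more input counts than Ppp1r15a and was not called (-0.17 ± 0.09). Of the 8 eIF2 and eIF2B subunits, 4 were lower and 4 were not called, from Eif2s1 (-1.48 ± 0.13) to Eif2b3 (-0.54 ± 0.20) among those called, and Eif2s2, the most counted, at -0.18 ± 0.17.

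Of 18 amino acid and one-carbon genes, 6 were higher, 2 of them enriched, and 10 lower, beside 26.3%, 17.3% and 35.7% of all genes. Asns, asparagine synthetase, went from 206, 195 and 213 CPM in input to 21.5, 24 and 30 CPM in the p-UPF1 IP (-3.02 ± 0.11). The transporter genes went both ways. Slc1a4 (2.01 ± 0.10), Slc7a5 (0.54 ± 0.07), Slc6a9 (0.495) and Slc38a2 (0.199) rose, Slc7a11 (-0.788), Slc3a2 (-0.600) and Slc1a5 (-0.455) fell, and Slc7a1 was not called. Of 10 other targets of ATF4 and CHOP, 3 were higher, 2 of them enriched, and 6 lower. The proapoptotic Bbc3 rose (3.07 ± 0.23), the autophagy receptor Sqstm1 fell (-0.65 ± 0.08), and the death receptor Tnfrsf10b had 32, 10 and 17 input counts and 1 count in each p-UPF1 IP library, a ratio of 0.176 (95% exact interval 0.0353 to 0.541, which covers counting error of the summed counts and not the spread between libraries). Of 15 genes of the IRE1 and ATF6 branches, 4 were higher and 10 lower, beside 26.3% and 35.7% of all genes, among them Ern1, the sensor IRE1 (1.61 ± 0.10), Hspa5, the chaperone BiP (-0.39 ± 0.07), and the co-chaperone Dnajb9 (-3.27 ± 0.16).

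Of 9 CREB/ATF and C/EBP relatives of the transcription factors above, 2 were higher and 5 lower, beside 26.3% and 35.7% of all genes, with Jdp2 highest (1.56 ± 0.13), Atf2 lowest (-1.56 ± 0.12) and Cebpg, the most counted, at -0.92 ± 0.09. Of 6 tested paralogs, 3 were higher, beside 26.3% of all genes, and 3 were not called. The higher ones were Sesn1 (2.55 ± 0.11), close to Sesn2, Trib1 (1.52 ± 0.14) and Trib2 (0.30 ± 0.10), which was below Trib3. Of 5 other mRNAs with known uORFs, 1 was higher, again beside 26.3% of all genes, namely Ifrd1 (0.89 ± 0.07), and Eprs, the most counted, was not called (0.03 ± 0.07). The 8 list medians ran from -0.90 to 0.14, all below the median of the 10 mRNAs.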

How the data were processed

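Reads of RNase I fragments had been processed by the authors, who according to the submitters' notes aligned them with STAR 2.7.0f to GRCm38.p6, obtained estimated counts per transcript with Salmon 0.13.1 and tested transcripts with DESeq2 1.22.1 in R 3.5.1. The deposited estimated counts were rounded to whole numbers and summed per gene symbol. Each comparison tested the genes or transcripts whose counts summed to 10 or more over its 6 libraries, with the quasi-likelihood test of edgeR 4.0.16 in R 4.3.3 after TMM scaling, and p-values were adjusted by Benjamini-Hochberg. Called means adjusted p under 0.05, and enriched or depleted also means a log2 fold change of at least 1 in size. Standard errors were derived from the log2 fold change and its F statistic. Alternatives were RLE factors, library totals, filterByExpr, no filter, DESeq2 1.42.0, all 9 libraries in one fit, a replicate block and leaving out each library. Transcript structures came from GENCODE M21, which held 139921 of the 140658 deposited transcripts, whereas the authors used M22. A window of 35 nt counted as a transcript's own when no other annotated transcript held it. In gene lists, the most counted gene and those with the largest and smallest called log2 fold changes were named. The code was tested on simulated data, where every gene comparison gave a share of false calls above the nominal 5%, slightly for p-UPF1 IP over input and more for the comparisons with the rIgG IP, whose calls are thus less certain than their adjusted p. In each simulated comparison 200 genes were changed, as many raised as lowered. The real p-UPF1 IP over input had 4451 genes called higher and 6040 lower, and the share of false calls under so many changes was not tested. The 10 mRNAs and the lists were chosen with earlier results of these data known. The value of 1 marker gene is not reported here.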

Additional observations from a re-analysis of the deposited data

How the results depend on the processing

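For p-UPF1 IP over input, 122 of 130 member values kept their call and direction over 13 alternatives. Atf4 reversed to 0.14 with library totals, so the number of members called lower was 0 there, 0 with all 9 libraries in one fit, and 0 to 1 when each library was left out. For p-UPF1 IP over rIgG IP, Chac1 reversed to -0.25 with RLE factors, -0.047 with library totals, -0.33 with filterByExpr and -0.23 with DESeq2, and ranged from -0.35 to 0.47 when 1 library was left out, while Atf5 ranged from -0.28 to 0.29. Genes called higher numbered 1214 with DESeq2 and 1309 to 2083 with 1 library left out, and genes called lower 311 to 711. The share of higher calls moved from 76.2% to 55.7% with DESeq2. For rIgG IP over input, leaving out 1 library gave ranges of -0.50 to 0.85 for Ddit3, -0.90 to 0.37 for Ddit4 and -0.06 to 0.55 for Cebpb, 0 to 1 members lower, 65 to 182 genes higher and 25 to 134 lower. With RLE factors 0 members and 28 genes were lower. Genes higher numbered 266 with no filter and 294 with DESeq2, and genes lower 168 with filterByExpr, 295 with no filter and 112 with all 9 libraries. Depleted transcripts numbered 4597 with library totals and 3682 to 6655 with 1 library left out.

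With a replicate block, genes in p-UPF1 IP over rIgG IP numbered 1368 higher and 427 lower, while transcripts in p-UPF1 IP over input numbered 1075 enriched and 1459 depleted, and Ddit4 in rIgG IP over input reversed to -0.065. Same-number libraries correlated at a mean of 0.03 in p-UPF1 IP over input, where 4 of 6 libraries correlated best with their own number, against 0 of 6 in each of the other comparisons, and the numbers were not taken as pairs.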

Other observations

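Among the 10612 other genes compared, each with a mean count of at least 20, those closest to Atf4 by Euclidean distance of log2 CPM relative to the input mean over the input and p-UPF1 IP libraries were Prc1 (distance 0.0876), Crk (0.0984), Vps50 (0.109), Rspry1 (0.12) and Cdc27 (0.127), with log2 fold changes over input from -0.32 to -0.25. None of the 5 belongs to the lists of stress response genes.

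Glial markers summed to 2.08, 1.51 and 1.37 CPM in input, led by Mbp with 37, 21 and 25 counts and with Aqp4 at 0, and to 13, 13.1 and 9.93 CPM after p-UPF1 IP. Fibroblast markers summed to 1.08, 1.19 and 1.34 CPM in input, led by Pdgfra with 28, 27 and 37 counts, with Col1a2 and Col3a1 at 0, and to 2.64, 2.49 and 2.56 CPM after p-UPF1 IP. Their part in the levels of the 10 mRNAs was not tested.

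Exons on the opposite strand overlapped 4.11% of the exonic bases of Atf5, 3.97% of those of Ddit3 and 0.409% of those of Ppp1r15a, and no window of 35 nt of the 10 genes occurred under another gene symbol.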
